A study of Mus musculus with 8 samples.

Results

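The locus described here is the copy of the 45S pre-ribosomal RNA unit (Rn45s) that the mm9 assembly places on chromosome 17, taken as the 8 kb from 39979001 to 39987000, with 50 kb on each side as local background. It is 1 of 316910 windows of 8 kb that held a tag on chromosomes 1 to 19 and X. It was chosen by its position and by the very many tags it holds, so its levels are given as a description without a test. H3K9me3, trimethylation of lysine 9 of histone H3, was profiled by ChIP-seq in Setdb1 mutant JM8 ES cells, a feeder-free C57BL/6N line that the labels describe as an Agouti substrain. Cells were taken untreated (T = 0) or, counted from the addition of 0.8 μM 4′OHT for 48 h, on days 2, 4 and 6 (T = 2d, T = 4d and T = 6d), and all carried the tm2 null allele of Setdb1 and a second, conditional allele that 4′OHT turns into a null allele through a CreERT2 recombinase at Rosa26. Untreated and treated cells are tm1a/tm2 and tm1c/tm2 in the labels, and tm1c/tm2 and tm1d/tm2 in the naming of the study. A few cells may escape recombination, and control cells with a wild-type allele were not analysed here, so an effect of 4′OHT itself cannot be told apart from the loss of Setdb1. The Upstate-type antibody, a laboratory gift much like one sold by Upstate, was used at all 4 time points, and Abcam lots 58206 and 638466 at T = 0 and T = 6d, which makes 8 libraries, none of them replicated within an antibody and time point. The tags carry no expression values, so the loss of Setdb1 and the ES cell state were not checked here. Tests between 2 libraries therefore compare those libraries and not the conditions.

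The 45S unit is the template that RNA polymerase I transcribes in the nucleolus into the precursor of the 18S, 5.8S and 28S ribosomal RNAs. A mammalian genome holds many such units in tandem arrays, of which only part is transcribed at a time, and silent units carry repressive marks including H3K9me3. SETDB1 is a histone methyltransferase that places H3K9me3 and is known best for silencing retroviral elements in ES cells. The arrays are left out of the mm9 chromosomes, so tags from many units can collect on the copy on chromosome 17. A level here is thus a sum over units, and the number of units and the mark per unit cannot be told apart. Input libraries were not analysed here, so the part of the level that would be present without precipitation was not measured.

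Each library of the Upstate-type antibody held 6887819 tags, each of lot 58206 held 8503927 and each of lot 638466 held 12194174, and their median 8-kb window held between 14 and 40 tags. Every tag was listed as a 300-bp interval without strand, and 0 start positions were repeated within a library, so a position counts once however many reads began there. A window of 500 bp can hold at most 500 tags for this reason, which compresses windows with many tags. Intervals below are 95% exact intervals, cover counting error only and do not include differences between cultures or precipitations.

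H3K9me3 tags were dense in the rDNA copy at T = 0 with all 3 antibodies. The copy held 1022 tags of the Upstate-type antibody (Poisson interval 960 to 1087), 2564 of lot 58206 (2466 to 2665) and 3151 of lot 638466 (3042 to 3263). Per 1000000 deposited tags these were 148, 302 and 258. Both Abcam libraries thus had a higher level than the Upstate-type library. With 1 library per antibody and time point, this describes the libraries and not the antibodies. The flanks on chromosome 17 were poor in tags: together they held 150, 240 and 279 tags over 100 kb. The copy thus lay 85.2-fold (interval 71.7 to 102), 134-fold (117 to 153) and 141-fold (125 to 160) above them per unit length. These flanks are not the chromatin beside other units whose tags can collect on the copy. The part of any fold over the flanks that comes from the number of units was not measured. Against the median 8-kb window of its own library instead of the flanks, T = 0 of lot 638466 was 82.9-fold higher. Among all 8-kb windows, the copy had rank 3 in tags with the Upstate-type antibody and rank 1 with each Abcam lot. In tags pooled over the 8 libraries it also had rank 1, with 9769 against 9621 in the next window. The grid was placed so that the copy fell whole in 1 window, while other loci can be split between windows. Ranks, and this narrow lead in particular, depend on that placement.

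After the start of 4′OHT treatment the tags in the copy fell with every antibody. The Upstate-type antibody gave 1022 tags in untreated cells, then 453 on day 2 (412 to 497), 101 on day 4 (82.3 to 123) and 152 on day 6 (129 to 178). Lot 58206 gave 2564 and then 1483 at T = 6d (1408 to 1560), and lot 638466 gave 3151 and then 843 (787 to 902). The lowest library was thus T = 4d of the Upstate-type antibody, and every treated library lay below T = 0 of its own antibody, although T = 6d of lot 58206, at 174 tags per 1000000, stayed above T = 0 of the Upstate-type antibody, at 148. The plot of levels by day shows these values beside those of the flanks.

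**Figure D1:**
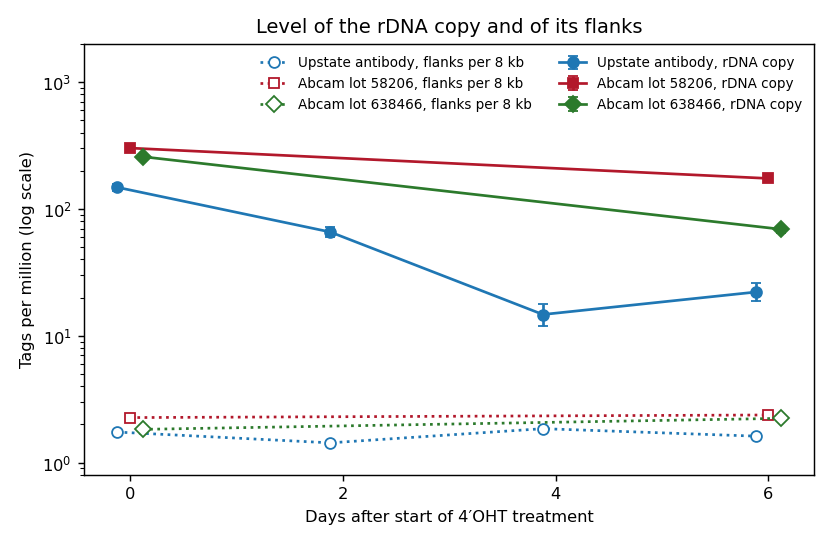
Tags per 1000000 deposited tags in the rDNA copy (filled symbols, solid lines) and in its flanks, scaled to 8 kb (open symbols, dotted lines), by day after the start of 4′OHT treatment, on a log axis. Each symbol is 1 library and bars are 95% exact Poisson intervals. The copy falls with each antibody between T = 0 and T = 6d, for the Upstate-type antibody from 148 to 22.1, for lot 58206 from 302 to 174 and for lot 638466 from 258 to 69.1, while the flanks stay low.

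Fisher's exact test, two-sided, was used to set the split of tags between the copy and the rest of the genome in each later library against that at T = 0. A call required P below 0.01 and a change over 1.5-fold. P values were adjusted by Benjamini-Hochberg over all 316910 windows. At T = 2d, the end of the treatment, the ratio to T = 0 with the Upstate-type antibody was 0.443 (interval 0.396 to 0.496, Fisher's exact test, adjusted P = 3.02e-45). The same requirement called 1.19% of all 8-kb windows lower and 0.946% higher in this comparison. Of the 28606 windows averaging 3 or more times the median, here termed dense windows, it called 1.58% lower and 7.4% higher. At T = 4d the ratio was 0.0988 (0.0797 to 0.121, Fisher's exact test, adjusted P = 7.53e-187). At this time 2.96% of all windows were called lower and 1.52% higher, and 5.76% and 5.03% of the dense windows. At T = 6d it was 0.149 (0.125 to 0.177, Fisher's exact test, adjusted P = 3.03e-153), with 4.44% of all windows called lower and 3.16% higher, and 8.87% and 9.13% of the dense windows. The copy was thus 2.26-fold lower at the end of treatment and 10.1-fold lower a further 2 days on, at times when dense windows were called in both directions.

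From T = 2d to T = 4d the change was itself called lower, with a ratio of 0.223 (0.178 to 0.277, Fisher's exact test, adjusted P = 1.09e-48), against 1.51% of all windows lower and 1.28% higher, and 6.23% and 1.43% of the dense windows. From T = 4d to T = 6d the tags went up from 101 to 152, a ratio of 1.5 (1.16 to 1.96). This step passed the requirement by a narrow margin (Fisher's exact test, P = 0.00162), as did 1.36% of all windows and 5.6% of dense windows for a rise, against 1.1% and 4.81% for a fall. It did not pass after adjustment over all windows (Fisher's exact test, adjusted P = 0.14).

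With the Abcam lots, T = 6d was also lower than T = 0. The ratio was 0.578 with lot 58206 (0.542 to 0.617, Fisher's exact test, adjusted P = 6.41e-60), where 2.9% of all windows were called lower and 2.33% higher. Dense windows of this lot went mostly the other way, with 1.64% called lower and 55.7% called higher. With lot 638466 the ratio was 0.268 (0.248 to 0.289, Fisher's exact test, adjusted P = 5.08e-305), where 2.81% of all windows were called lower and 1.71% higher. In this lot, 91 windows were dense, and 30.8% of them were called lower and 0 higher, so that a fall was common among them.

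The copy was called lower in all 5 comparisons with T = 0. This was so for 543 of all 8-kb windows (0.171%) and for 52 of the 16188 windows (0.321%) that averaged 3 times the median over the 8 libraries. A fall at T = 6d with each of the 3 antibodies was called in 0.587% of all windows and 1.61% of those 16188. The comparisons of the Upstate-type antibody share their T = 0 library and are not independent of each other. Few dense windows had a lower ratio than the copy. With the Upstate-type antibody these were 78 of 28606 (0.273%) on day 2, 4 of 25887 (0.0155%) on day 4 and 81 of 26563 (0.305%) on day 6. With lot 58206, 65 of 4696 (1.38%) had a lower ratio, and with lot 638466, 8 of 91 (8.79%). The histograms of window changes show the copy in the lower part of each distribution.

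**Figure D2:**
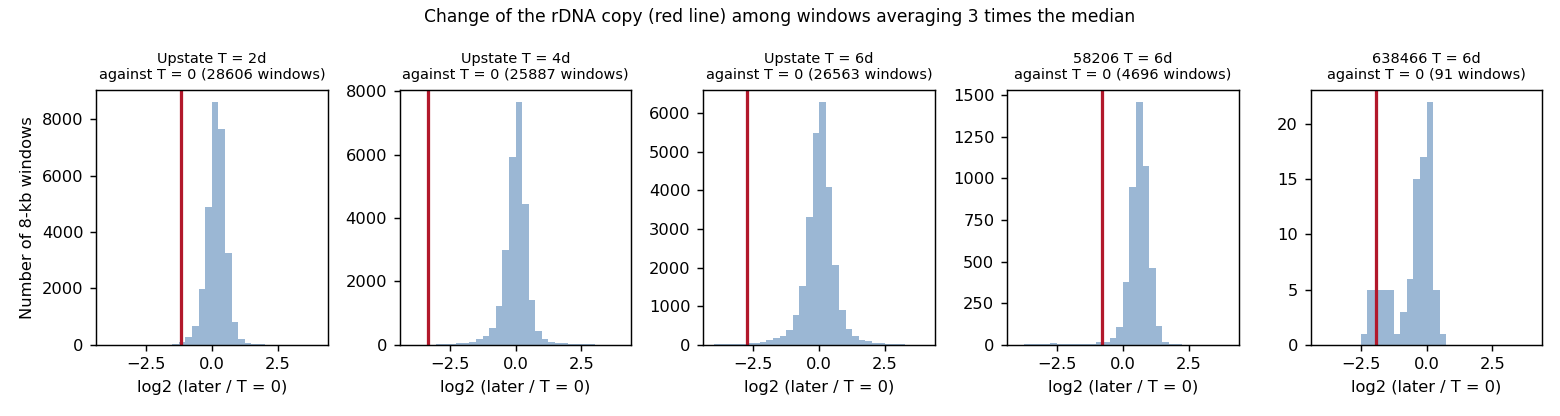
Histograms of the log2 ratio of each later library to T = 0 of the same antibody over 8-kb windows averaging 3 or more times the median of both libraries, with 0.5 tags added to each count and values limited to between −4 and 4. The red line is the rDNA copy, at −1.17, −3.34 and −2.75 for the Upstate-type antibody, at −0.79 in lot 58206 and at −1.9 in lot 638466, to the left of most windows in each panel.

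The flanks did not follow the copy, but they had few tags to lose. Per 8 kb they held 12, 19.2 and 22.3 tags at T = 0 of the Upstate-type antibody, lot 58206 and lot 638466. The median 8-kb windows of these libraries held 15, 26 and 38. Upstream and downstream flanks together held 150, 123, 159 and 139 tags over the 4 Upstate-type libraries in order of time, 240 and 253 at T = 0 and T = 6d of lot 58206, and 279 and 340 with lot 638466. None of the 5 comparisons with T = 0 met the requirement in the flanks, whose ratios ran from 0.82 to 1.22 (Fisher's exact test, lowest P = 0.0158, for the rise with lot 638466). Counted against the flanks of its own library, the copy at T = 6d was 0.16 times its T = 0 level for the Upstate-type antibody (Fisher's exact test, P = 1.95e-35), 0.549 times with lot 58206 (Fisher's exact test, P = 5.04e-10) and 0.22 times with lot 638466 (Fisher's exact test, P = 1.38e-63). Even at its lowest, at T = 4d, the copy stayed 7.94-fold above its flanks (6.13 to 10.3), and at T = 6d it was 13.7-fold above them for the Upstate-type antibody, 73.3-fold above them in lot 58206 and 31-fold in lot 638466. In rank among all windows the copy went from 3 in untreated cells to 21, 8712 and then 2391 with the Upstate-type antibody. It stayed at 1 with lot 58206 and went from 1 to 11 with lot 638466.

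The control region displayed in the study, 5 kb near the proximal end of chromosome 4, was counted for reference. It held 90, 88, 68 and 62 tags over the 4 Upstate-type libraries in order of time, 77 and 72 tags with lot 58206 and 91 and 100 tags with lot 638466. Its ratio of T = 6d to T = 0 was 0.689, 0.935 and 1.1 in the same order (Fisher's exact test, P = 0.0282, 0.743 and 0.563). It did not meet the requirement with any antibody, although its tags also went down with the Upstate-type antibody. The copy fell further than this region at T = 6d with each antibody, with ratios relative to it of 0.216, 0.619 and 0.243 (Fisher's exact test on the 4 tag numbers, P = 3.91e-15, 0.00432 and 4.03e-20).

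Other windows that gather very many tags were counted in the same way. Of the 100 other 8-kb windows with the most pooled tags, which held between 1423 and 9621, the same Fisher's exact test and fold requirement called 0 lower and 13 higher at T = 2d of the Upstate-type antibody. At T = 4d, 8 were lower and 1 was higher, and at T = 6d 12 were lower and 2 were higher. With lot 58206, 19 were lower and 14 higher at T = 6d, and with lot 638466 12 were lower and 0 higher. None of the 100 was lower in all 5 comparisons, and 5 were lower at T = 6d with all 3 antibodies. The 100 were chosen on pooled tags, and some lay near the median window with the Abcam lots, where a fall could hardly be called. The window on chromosome 19 from 10683001 held 27 and 25 tags with lot 58206, where medians were 26 and 25. With lot 638466 it held 62 and 52, where medians were 38 and 40. The 0 of 100 is thus not a like comparison with the copy.

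Within these 100 windows, the one whose levels over the 8 libraries were most like those of the copy lay on chromosome 11 from 3091001 to 3099000 (Pearson's r = 0.97 of log2 tags per 1000000 over 8 libraries, given as a description). It held 982, 694, 430 and 355 tags over the Upstate-type time course, 1493 and 1193 with lot 58206 and 1977 and 1405 with lot 638466. Its tags fell at each step for the Upstate-type antibody, without the rise from T = 4d to T = 6d seen at the copy. The next 2 lay on chromosome 18 from 3003001 to 3011000 (r = 0.8) and on chromosome 15 from 74915001 to 74923000 (r = 0.72), and the median over the 100 windows was −0.56. The 8 points share antibodies, which differ in depth and in how far tags are concentrated, and genes of mm9 were not assigned to these windows.

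Tags of the copy lay in a run within the interval. Bins of 100 bp held at least 5 times the flank median of 1 pooled tag without interruption from 39979701 to 39985900, a run of 6200 bp, and the pooled number dropped from 80 in its last bin to 1 in the next. The highest bin of the run held 302 pooled tags and the highest bin of the flanks held 7. An annotation and a sequence of mm9 were not used here, so the start, strand and parts of the 45S unit were not set against the tags. Of the 16 windows of 500 bp in the interval, windows 1, 15 and 16, at the ends, held between 0 and 6 tags in each library, and no flank window of any library held more than 7. The remaining 13 windows carried the signal.

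The profile along the run had its highest window toward the downstream end, on the assembly's forward strand. At T = 0 this window stood out with the Upstate-type antibody, at 182 tags against 118 in the second highest. With the Abcam lots it was close to the second highest, at 279 against 265 (lot 58206) and 339 against 326 (lot 638466). Window 12, from 39984501 to 39985000, was the highest in every library, shared with window 5 at T = 6d of the Upstate-type antibody. It held 182, 93, 21 and 21 tags over the Upstate-type time course, 279 and 171 with lot 58206 and 339 and 123 with lot 638466. This window took 17.8% of the tags of the copy at T = 0 for the Upstate-type antibody, against 10.9% for lot 58206 and 10.8% with lot 638466. The other 12 windows of the run ranged from 22 to 118 tags at T = 0 of the Upstate-type antibody, and then from 6 to 47 on day 2, 2 to 11 on day 4 and 2 to 21 on day 6. In lot 58206 their range was 56 to 265 at T = 0 and 25 to 161 at T = 6d, and in lot 638466 it was 86 to 326 and then 15 to 99. Window 1, from 39979001 to 39979500, was the lowest by pooled tags and held 1, 0, 2 and 0 tags over the Upstate-type time course, 2 and 1 with lot 58206 and 0 and 1 with lot 638466. Over the 16 windows, the profiles of both Abcam lots at T = 0 correlated with Pearson's r = 0.99, and each of them with the Upstate-type profile at r = 0.84 and 0.85. Profiles at T = 0 and T = 6d of an antibody correlated at r = 0.91 (Upstate-type), 0.96 (lot 58206) and 0.94 (lot 638466). These are descriptions over neighbouring windows, which are not independent of each other.

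**Figure D3:**
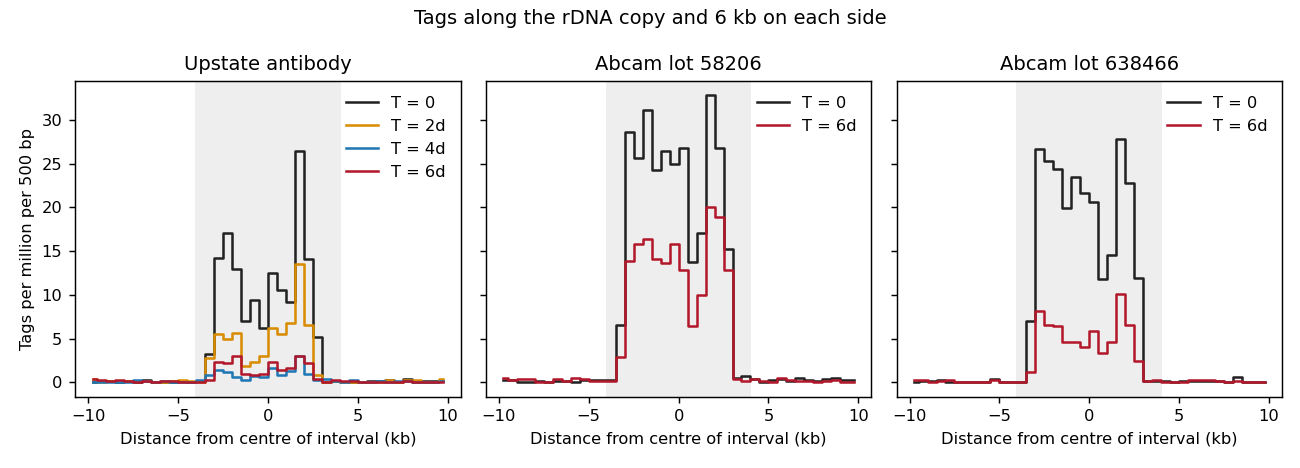
Tags per 1000000 deposited tags in 500-bp windows against the distance from the centre of the interval, for the Upstate-type antibody (T = 0, T = 2d, T = 4d and T = 6d) and Abcam lots 58206 and 638466 (T = 0 and T = 6d), with the 8-kb interval shaded. Each line is 1 library. Over the range drawn, signal rises within the interval, is highest in window 12, at 1.75 kb from the centre, and is lower along the run in the treated libraries.

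The run was then tested in its 500-bp windows. Of the 13 windows with at least 20 tags in both libraries together, the same Fisher's exact test and fold requirement called 11 lower at T = 2d of the Upstate-type antibody. Across the genome it called 0.273% of such windows lower and 1.91% higher. At T = 4d all 13 were called lower, against 1.17% lower and 1.27% higher across the genome, and at T = 6d all 13 were again, against 2.11% lower and 0.68% higher. With lot 58206, 11 of the 13 were lower at T = 6d, where 0.969% of windows across the genome were lower and 20.9% higher. With lot 638466 all 13 were lower, where 19.6% were lower and 0.191% higher. None of the 13 was called higher in these 5 comparisons. The 13 windows split the tags already tested for the copy as a whole and are not separate observations. Windows with more tags are called more readily. Window 12 held 21 and 182 tags at T = 4d and T = 0 of the Upstate-type antibody, while 20 together sufficed across the genome. The shares are thus not set side by side at equal tag numbers. From T = 2d to T = 4d, 9 of 11 windows with enough tags were lower, against 1.23% lower and 0.262% higher. After Benjamini-Hochberg adjustment over all 500-bp windows, 1 of the 13 stayed lower at an adjusted P below 0.05 on day 2 of the Upstate-type antibody, and 12 did so on day 4 and on day 6. With lot 58206 there were 5, and with lot 638466 there were 13. The share of 500-bp windows across the genome that stayed called after adjustment was not counted. How unusual these adjusted numbers are was thus not tested.

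The size of the fall varied along the run. At T = 2d the ratio to T = 0 ran from 0.167 in window 14 (36 to 6 tags) to 0.864 in window 2 (22 to 19 tags), the windows at the ends of the run, where numbers were smallest. At T = 6d the range was 0.0833 to 0.236 for the Upstate-type antibody, 0.446 to 0.838 with lot 58206 and 0.174 to 0.363 with lot 638466. The highest ratio of the Upstate-type antibody thus lay below the lowest of lot 58206. From T = 4d to T = 6d for the Upstate-type antibody, 7 windows held at least 20 tags together, with ratios from 1 to 5.25. The one called higher was window 5, from 39981001 to 39981500, where tags went from 4 to 21 (Fisher's exact test, P = 9.11e-04, adjusted P = 1), against 0.251% of windows called higher and 1.24% called lower across the genome.

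**Figure D4:**
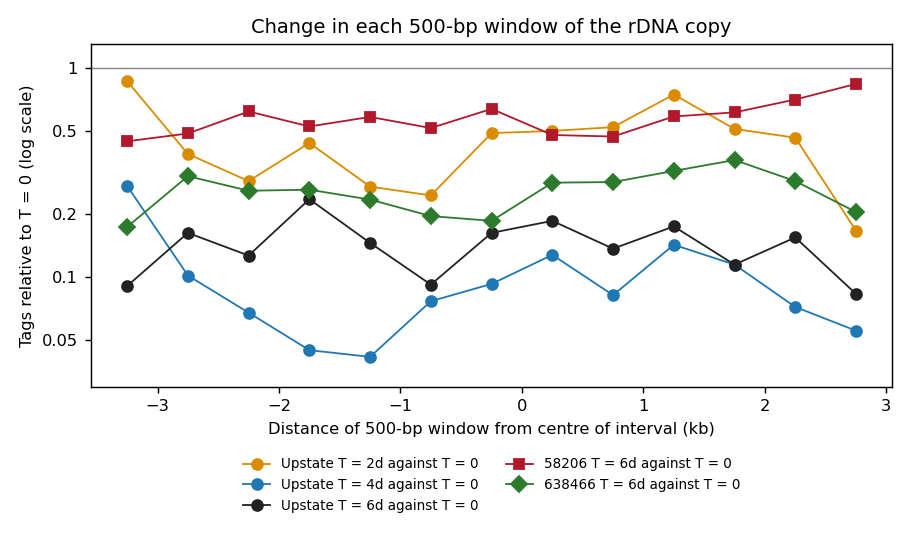
Ratio of tags to T = 0 of the same antibody in the 13 windows of 500 bp with at least 20 tags in both libraries together, on a log axis, against the distance from the centre of the interval. Colours and symbols mark the 5 comparisons. All points lie below 1. Those of the Upstate-type antibody lie between 0.167 and 0.864 at T = 2d and between 0.0417 and 0.273 at T = 4d and T = 6d, those of lot 638466 between 0.174 and 0.363, which overlaps both, and those of lot 58206 between 0.446 and 0.838.

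The size of the fall of the copy at T = 6d differed between the libraries of the 3 antibodies. With 1 library per antibody and time point, the tests below compare libraries and not antibodies. The libraries of an antibody hold the same number of tags, so the ratios could be compared by Fisher's exact test on the 4 tag numbers of each pair, with adjustment over the 3 pairs. The ratio with the Upstate-type antibody was 0.257 times that with lot 58206 (Fisher's exact test, adjusted P = 1.61e-59) and 0.556 times that with lot 638466 (Fisher's exact test, adjusted P = 1.34e-10), and the ratio with lot 58206 was 2.16 times that with lot 638466 (Fisher's exact test, adjusted P = 1.83e-53). Fisher's exact test was also run on 8-kb windows that averaged 3 times the median over the libraries of the pair. It gave P below 0.01 in 16.4% of 16155, 9.88% of 14817 and 68.9% of 821. Differences between the libraries of the antibodies were thus also found beyond the copy. The sets of windows were chosen on different libraries, and the shares are not ranked.

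Across the 3 antibodies, the log2 difference of T = 6d and T = 0 averaged −1.80 with an SD of 0.97 (n = 3 antibodies, which are not biological replicates) and was negative in 3 of 3. An exact permutation test of the signs gave P = 0.25, the smallest that 3 pairs allow. By limma with the antibody as a term, over 180910 windows that averaged at least the median, the fold change was −1.80 on the log2 scale (standard error 0.19, adjusted P = 0.000142), where 2.24% of windows were called lower and 0.198% higher at an adjusted P below 0.05 and 1.5-fold. This standard error is smaller than the 0.56 that the 3 differences themselves give, since limma takes it largely from other windows, and few windows are as dense as the copy. The limma call was lost when the Upstate-type antibody was left out (log2 fold change −1.34, adjusted P = 0.886), without the antibody term (adjusted P = 1) and without a filter on windows (adjusted P = 0.974). It was kept when either Abcam lot was left out, with P values too small to be relied on, as given in the closing section.

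The listing of each start position once bears on these sizes. The tags covered 39.4% of the 8000 start positions of the copy at T = 0 of lot 638466 (Clopper-Pearson interval 38.3 to 40.5%), 32% in lot 58206 (31 to 33.1%) and 12.8% with the Upstate-type antibody (12.1 to 13.5%). At T = 6d they covered 10.5% (9.87 to 11.2%), 18.5% (17.7 to 19.4%) and 1.9% (1.61 to 2.22%) in the same order. In window 12 at T = 0 of lot 638466, 67.8% of the positions were taken. Of the run, 74.5% of the 6200 positions were used by at least 1 library, and the longest stretch used by none was 92 bp. Starts recurred between libraries of an antibody: 69% of those at T = 6d of lot 638466 were also present at T = 0, where 39.4% of the interval was in use. The shares were 51.7% with lot 58206 and 34.2% with the Upstate-type antibody. Nearly all tags lay in the run, where 50.7% of positions were in use at T = 0 of lot 638466. In lot 58206 this was 41.1%, and with the Upstate-type antibody 16.5%. Where starts fall at random over the interval, the mean number of reads per position is minus the natural log of the share of free positions. On that scale the ratio of T = 6d to T = 0 was 0.531 with lot 58206 and 0.222 with lot 638466, lower than by tags. The condition was not fully met, since the shares of recurring starts exceeded the shares of the run in use at T = 0. Whether repeated starts were removed before or after libraries were reduced to 1 tag number is not given in the sources used here. These 2 ratios are thus approximate.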

How the data were processed

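H3K9me3 ChIP-seq intervals of 8 libraries of Setdb1 mutant ES cells were analysed. The authors kept uniquely mapped tags with at most 1 mismatch, reduced libraries to 1 tag number per antibody, and deposited an interval of 300 bp for each tag, with no strand, score or counts per region. How tags were picked for this step and the aligner are not given in the sources used here. The build is mm9 per the labels. Groups follow the time point and antibody that the labels give each library.

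Midpoints of the intervals were counted (Python 3.11.15 with scipy 1.17.1, pandas 2.3.3 and numpy 2.4.6) in a grid of 8-kb windows of which 1 is the interval of the copy, in 500-bp windows and in 100-bp bins. Two-sided Fisher's exact tests, with Benjamini-Hochberg adjustment over all windows holding a tag, compared libraries. Windows averaging 3 times the median were chosen on both libraries compared. limma 3.58.1 in R 4.3.3 (eBayes with trend) was run on log2(tags per 1000000 + 0.5). Scripts were tested on simulated data. Plots were made in matplotlib 3.10.9.

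By the rule for naming, values are given for the copy, its highest and lowest 500-bp windows by pooled tags, the control region, and the 3 windows most like the copy among the 100 densest others. Windows 2, 5 and 14 were singled out after their values were seen. The copy and the lists were chosen with earlier results of these data known. Alternatives were placement by the start, scaling to background windows (below 1.5 times the median in every library) or flanks, flanks of 20 or 200 kb, windows of 250 bp or 1 kb, the run of dense bins, tests on positions, thinning, and in limma other pseudocounts, filters and models and leaving out each antibody. Gene positions and sequences were not used, since the reference at hand is of another build.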

Additional observations from a re-analysis of the deposited data

Results flagged for a closer look

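The ratio of T = 6d to T = 0 at the rDNA copy differed between antibodies. The Upstate-type antibody gave 0.149, lot 58206 gave 0.578 and lot 638466 gave 0.268, and the quotients between antibodies were 0.257 (Upstate-type over lot 58206), 0.556 (Upstate-type over lot 638466) and 2.16 (lot 58206 over lot 638466), each past Fisher's exact test on the 4 tag numbers after adjustment over the 3 pairs (largest adjusted P = 1.34e-10). No library was replicated, so these differences have no replicate check. At T = 0 the tags took 12.8% of the start positions of the copy for the Upstate-type antibody, against 32% for lot 58206 and 39.4% for lot 638466. The part of this in the differences was not tested.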

How the results depend on the processing

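The falls of the copy against T = 0 kept their direction and their side of the requirement in all 25 results of the 5 comparisons. Tags were placed by the start, scaled to background windows or flanks, counted in the run of dense bins or tested on positions. Most of these alternatives could differ little from the main result. With 0 repeated starts, a test on positions uses the same numbers as tags. The run held nearly all tags of the copy (1020 of 1022 at T = 0 of the Upstate-type antibody), and scaling to flanks repeats the contrast with flanks given above. The ratios of the falls stayed between 0.443 and 0.541 on day 2, 0.0931 and 0.0988 on day 4 and 0.147 and 0.16 on day 6 of the Upstate-type antibody. They stayed between 0.549 and 0.579 with lot 58206 and between 0.22 and 0.268 with lot 638466. The same held for all 10 results relative to flanks of 20 or 200 kb, all 4 for the steps between time points and all 15 for the share of 500-bp windows. Some ratios nevertheless left the interval of the main result. Scaled to flanks, they did so at 0.541 on day 2 (interval 0.396 to 0.496) and at 0.22 with lot 638466 (0.248 to 0.289). Scaled to background windows, lot 638466 did so at 0.241. With minus the natural log of free positions, ratios left their interval at 0.531 for lot 58206 and 0.222 for lot 638466. Within the run of dense bins, chosen with the results known, these were 0.513 and 0.205. The level of lot 638466 at T = 0 was 82.9-fold over its median window and 182-fold over the flanks within the run. Among positions used by any library, 2.17% held a tag at T = 4d of the Upstate-type antibody and 67.6% at T = 0 of lot 638466. Thinning the Abcam libraries to the 6887819 tags of the Upstate-type libraries left their 4 levels within their interval. Each start was already listed once before thinning, so this does not test how that listing compresses a level.

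By limma the log2 fold change stayed at −1.80 without the replicate block of the antibody (adjusted P = 1) and without a filter on windows (adjusted P = 0.974, standard error 17.53), and the call was lost in both. Leaving out 1 antibody gave −1.34 to −2.31, and without the Upstate-type antibody the call was lost. Without lot 58206 or lot 638466, limma gave adjusted P = 8.68e-17 and 1.1e-100, each with a standard error of 0.08. Without the trend these standard errors were 0.30 and 0.34. P values so small from so few libraries rest on the trend over other windows. The size of the adjusted P from the main limma fit, which uses the same trend, is thus not relied on. Without the trend in eBayes, chosen after the data were seen, the copy was called with all antibodies (adjusted P = 0.00245) and without each in turn (largest adjusted P = 0.00276), so the loss of the call without the Upstate-type antibody depended on the trend. With no replicate libraries, differences between cultures are not covered by any P value.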
